A study of Mus musculus with 12 samples.

Results

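The genes described here are 37 genes that cells switch on in response to interferons, out of 24478 gene symbols measured. They were taken by name from a list of known interferon response genes, and each was sorted into a type I class (29 genes) or a gamma class (8 genes) by the interferon it is best known to answer to. Many of them answer to both kinds. All 37 had enough reads to be tested. RNA was measured by sequencing of poly(A) RNA from thymic tissue of mice in 12 libraries, 3 in each of 4 groups. Control thymus expressed only endogenous MYC. T58A lymphomas were spontaneous thymic lymphomas that expressed only the ectopic MYC mutant T58A (a threonine changed to alanine), and S62A lymphomas expressed only the ectopic mutant S62A (a serine changed to alanine). S62A splenomegaly masses were thymic masses that expressed both the ectopic S62A mutant and endogenous MYC. The labels call the cells of the first 3 groups T cells and those of the masses T and B cells. They give no strain, age, promoter or driver of the ectopic MYC. Whether each library came from an animal of its own is also not stated, and p-values then reflect only how these libraries vary, which can be technical in part.

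Interferons are secreted proteins that warn cells of infection and shape immune responses. Type I interferons (alpha and beta) bind the IFNAR1 and IFNAR2 receptor, whose kinases JAK1 and TYK2 phosphorylate proteins of the STAT family. STAT2 is part, with IRF9, of a complex, ISGF3, that binds a DNA element called ISRE. Interferon gamma, made mostly by T cells and natural killer cells, binds IFNGR1 and IFNGR2, and its signal passes through JAK1 and JAK2 to another element, GAS. The thymus is known to have a steady type I interferon tone, with interferon beta made by epithelial cells of its medulla.

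Promoters were read from RefSeq windows on GRCm38.p6 that run from 250 bases before to 50 bases after each gene's start. A window was found for 28 of the 37 genes and for none of Usp18, Parp9, Dhx58, Zbp1, Oas2, Mx1, Mx2, Rtp4 and Iigp1. The ISRE core searched was TTTC, any 2 bases and TTTC, or its reverse complement, GAAA, any 2 bases and GAAA. The GAS core was TTCNNNGAA, which is its own reverse complement, so both strands were covered. The ISRE core was present in the windows of 15 of the 28 genes (53.6%), against 3.99% of the 27025 genes with a window. The GAS core was present in 9 of 28 (32.1%), against 9.55% of all genes. The ISRE core was found in 10 of 21 type I genes and in 5 of 7 gamma genes with a window. The following stretches were chosen because they hold these letters in genes whose values carry the results. They are written 5′ to 3′ on the strand of the gene, and capitals mark the matches, which can overlap each other.
Isg15, chr4:156200855-156200916, minus strand: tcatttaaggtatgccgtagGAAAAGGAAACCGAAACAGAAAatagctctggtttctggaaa
Ifit1, chr19:34640765-34640833, plus strand: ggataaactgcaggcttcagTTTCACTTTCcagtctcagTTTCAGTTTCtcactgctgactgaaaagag
Oas1a, chr5:120907526-120907643, minus strand: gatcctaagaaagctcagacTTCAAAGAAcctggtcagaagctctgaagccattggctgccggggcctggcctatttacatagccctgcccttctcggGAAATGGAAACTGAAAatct
Gbp2, chr3:142620584-142620633, plus strand: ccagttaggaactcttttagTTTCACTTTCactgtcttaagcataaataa
Gbp3, chr3:142559979-142560034, plus strand: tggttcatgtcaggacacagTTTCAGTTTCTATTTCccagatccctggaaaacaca
Irgm1, chr11:48871421-48871470, minus strand: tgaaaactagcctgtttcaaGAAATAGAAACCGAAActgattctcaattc
Igtp, chr11:58199491-58199551, plus strand: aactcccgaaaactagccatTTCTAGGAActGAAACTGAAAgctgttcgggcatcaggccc
Irf1, chr11:53769904-53769952, plus strand: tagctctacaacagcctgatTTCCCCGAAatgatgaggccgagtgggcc
In Isg15 the ISRE core occurred 3 times in overlap, with first bases at −78, −72 and −66 from the start. Ifit1 held 2 separate copies, with first bases at −104 and −85. The GTPase genes Gbp3 and Irgm1 held 2 overlapping copies each. The Igtp window held both motifs, and the Irf1 window held only the GAS core, at −90. A match describes the letters and does not show that a factor binds there.

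Reads assigned to genes ranged from 9577373 to 22437969 per library. Levels of one gene are given below in CPM, which are read counts scaled to the size of the library. Levels of different genes are compared only in FPKM, which also scales to transcript length. The labelled tissue was checked against marker genes, summed in CPM. The 10 thymic epithelium markers summed to 2790 to 3030 in controls, 127 to 189 in T58A lymphomas, 15.9 to 47.5 in S62A lymphomas and 70.2 to 76.9 in splenomegaly masses. The 8 T cell markers summed to 5180 to 5360, 1140 to 1550, 771 to 1760 and 771 to 797 in the same order. B cell markers (8 genes) summed to 75.4 to 80.1, 29.1 to 367, 26.3 to 44.8 and 1980 to 2650. Plasma cell markers (6 genes) summed to 255 to 312, 338 to 2620, 177 to 657 and 16800 to 27000. Macrophage and monocyte markers (9 genes) summed to 492 to 582, 1550 to 2270, 1300 to 1880 and 4110 to 6780. Neutrophil markers (8 genes) summed to 123 to 202, 65.9 to 195, 1.72 to 6.27 and 6.2 to 70.1, and in each S62A lymphoma 4 or 5 of the 8 had 0 reads. All 8 were called lower in S62A lymphomas than in controls (median −6.41) and 7 of 8 lower than in T58A lymphomas (median −5.53). Of all genes, 22.2% and 2.29% were called lower in these comparisons. The 8 plasmacytoid dendritic cell markers summed to 969 to 1070, 158 to 299, 142 to 291 and 641 to 746. In S62A lymphomas 5 of them were called lower and 1 higher than in controls (median −3.26), against 22.2% and 21.9% of all genes. Among them Ccr9, also a thymocyte gene, was at 820 to 941 CPM in controls and carried most of those sums. It was at 4.19 to 4.91 in the masses, where 3 of the 8 markers were called higher and 1 lower (median 0.9). The shares of all genes there were 22.9% and 26.3%. The groups thus differed in these markers. In S62A lymphomas neutrophil markers were lower than in controls, as most of the interferon genes were. So were 10 of 10 thymic epithelium and 6 of 8 T cell markers, and 22.2% of all genes. In the masses 3 of the 8 neutrophil markers were called lower and 0 higher than in controls, against 26.3% and 22.9% of all genes. Of the 37 interferon genes, 18 rose there. The part of the marker lists in the values of the interferon genes was not tested. In bulk RNA fewer cells of a type and less RNA per cell cannot be told apart.

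**Figure D1:**
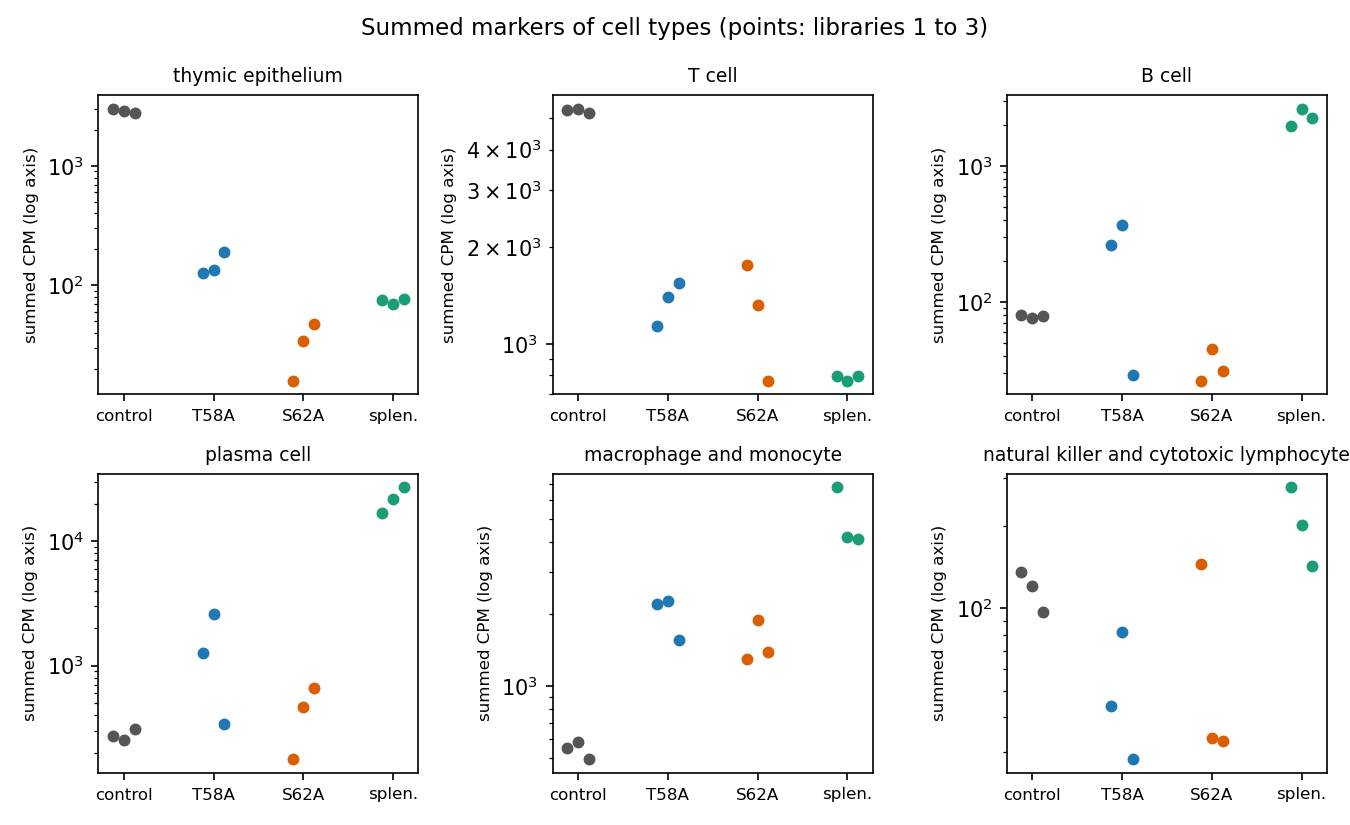
Summed CPM of 6 lists of cell type markers in each library (log axis, points are libraries 1 to 3 of each group). Thymic epithelium markers were at 2790 or more in the controls and at 189 or less in every tumour or mass, while B cell markers were at 1980 or more in the splenomegaly masses and at 367 or less elsewhere.

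Across the 4 groups, the order of group means most often seen was splenomegaly mass, control, T58A lymphoma and S62A lymphoma, from highest to lowest. It held for 23 of the 37 genes, 18 of them in the type I class and 5 in the gamma class. The splenomegaly mass had the highest mean for 31 genes, and the S62A lymphoma had the lowest for 30. Control thymus had the highest mean for 5 type I genes, and the T58A lymphoma for Ifit2. The order of the lymphomas between themselves mostly lay within their spread.

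**Figure D2:**
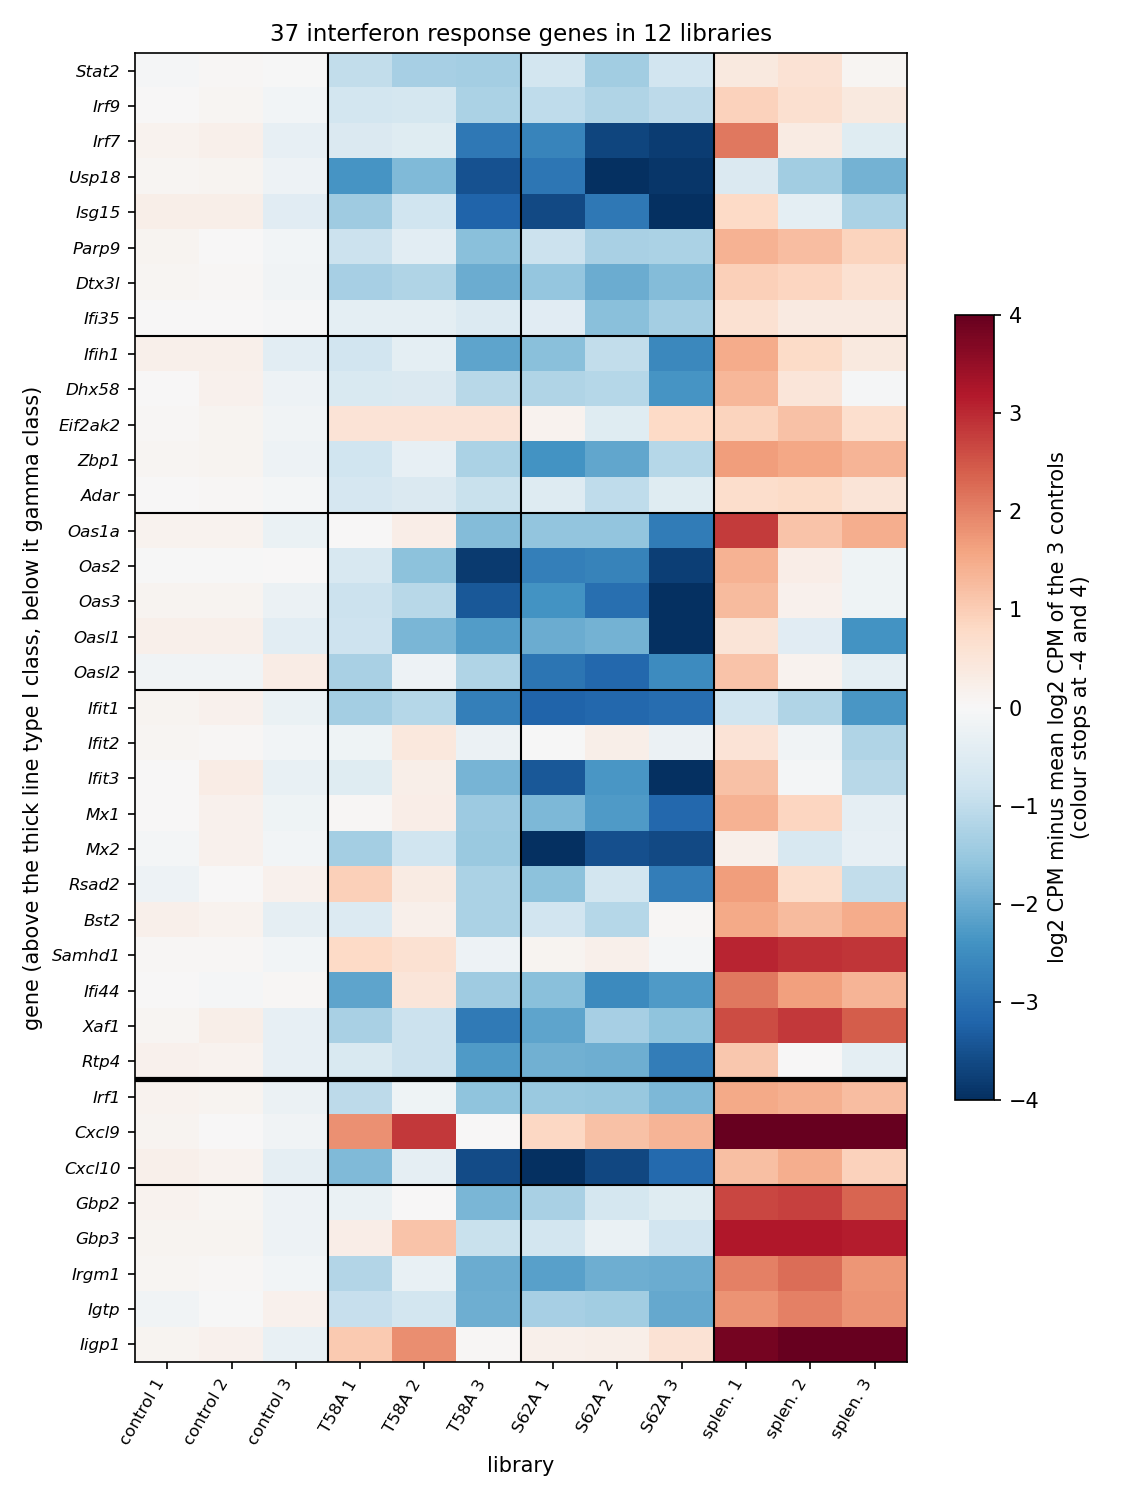
Level of each of the 37 genes (rows, by role) in each of the 12 libraries (columns), as log2 CPM minus the mean log2 CPM of the 3 controls. Blue cells fill most of the S62A lymphoma columns, where 28 genes were called lower than control, and red cells fill the gamma class rows of the splenomegaly columns, where 7 of 8 genes were called higher.

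In T58A lymphomas against controls, 12 of the 37 genes fell and 2 rose at an adjusted p under 0.05 in edgeR's quasi-likelihood test, with Benjamini-Hochberg adjustment over all 15606 genes tested. Over all genes, 17.4% fell and 18.8% rose, so the share of the 37 genes that fell was higher than that of all genes and the share that rose was lower. The median log2 change of the 37 genes was −0.84, against 0.01 for all genes. In the type I class 9 of 29 genes fell, with a median of −0.88, and none rose (0 at an unadjusted p under 0.05 and 0 in DESeq2). In the gamma class 3 of 8 fell (Irf1, Irgm1 and Igtp) and 2 rose (Cxcl9 and Iigp1), with a median of −0.67. All 3 T58A libraries carry the letter H in their titles, which only control 3 shares. Against that control alone no gene of the 37 was called in either direction, 413 of all genes were called, and the median was −0.62. Without T58A lymphoma 3 the calls were 9 lower and 4 higher, with a median of −0.61, and without T58A lymphoma 2 or any one control 1 gene was called higher.

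In S62A lymphomas against the same controls, 28 of the 37 genes fell and none rose (1 at an unadjusted p under 0.05, Cxcl9, and 0 in DESeq2). Over all genes, 22.2% fell and 21.9% rose. The median of the 37 genes was −1.66, against 0 for all genes. In the type I class 24 of 29 fell, with a median of −1.78, and in the gamma class 4 of 8 fell, with a median of −1.17. All libraries of both S62A groups carry the title letter I and no control does, so the letter and the group cannot be told apart in any comparison of an S62A group with controls or with T58A lymphomas. Of the 37 genes, 12 (32.4%) were called lower in both lymphoma groups, where 13.6% of all genes were. Another 16 genes (43.2%) were called lower in S62A lymphomas and not called in T58A lymphomas, against 8.62% of all genes. The other way round there were 0 of the 37, against 3.77% of all genes. The 2 comparisons share their controls, so that joint calls occur over any genes, and the difference between the lymphomas has a test of its own.

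In S62A splenomegaly masses against controls, 18 of the 37 genes rose and 1 fell (Ifit1). Over all genes, 22.9% rose and 26.3% fell. The median of the 37 genes was 0.82, against −0.08 for all genes. In the gamma class 7 of 8 genes rose and the other one, Cxcl10, was at 1.18 without passing the test, for a median of 2.30. In the type I class 11 of 29 rose and 1 fell, with a median of 0.67. Of the 28 genes lower in S62A lymphomas, 11 (39.3%) were called higher in the masses of the same mutant. Over all 3471 genes lower in S62A lymphomas, 10.9% were. These comparisons, too, share their controls. Without control 3 or without splenomegaly mass 1 the number called higher was 15 or 16.

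**Figure D3:**
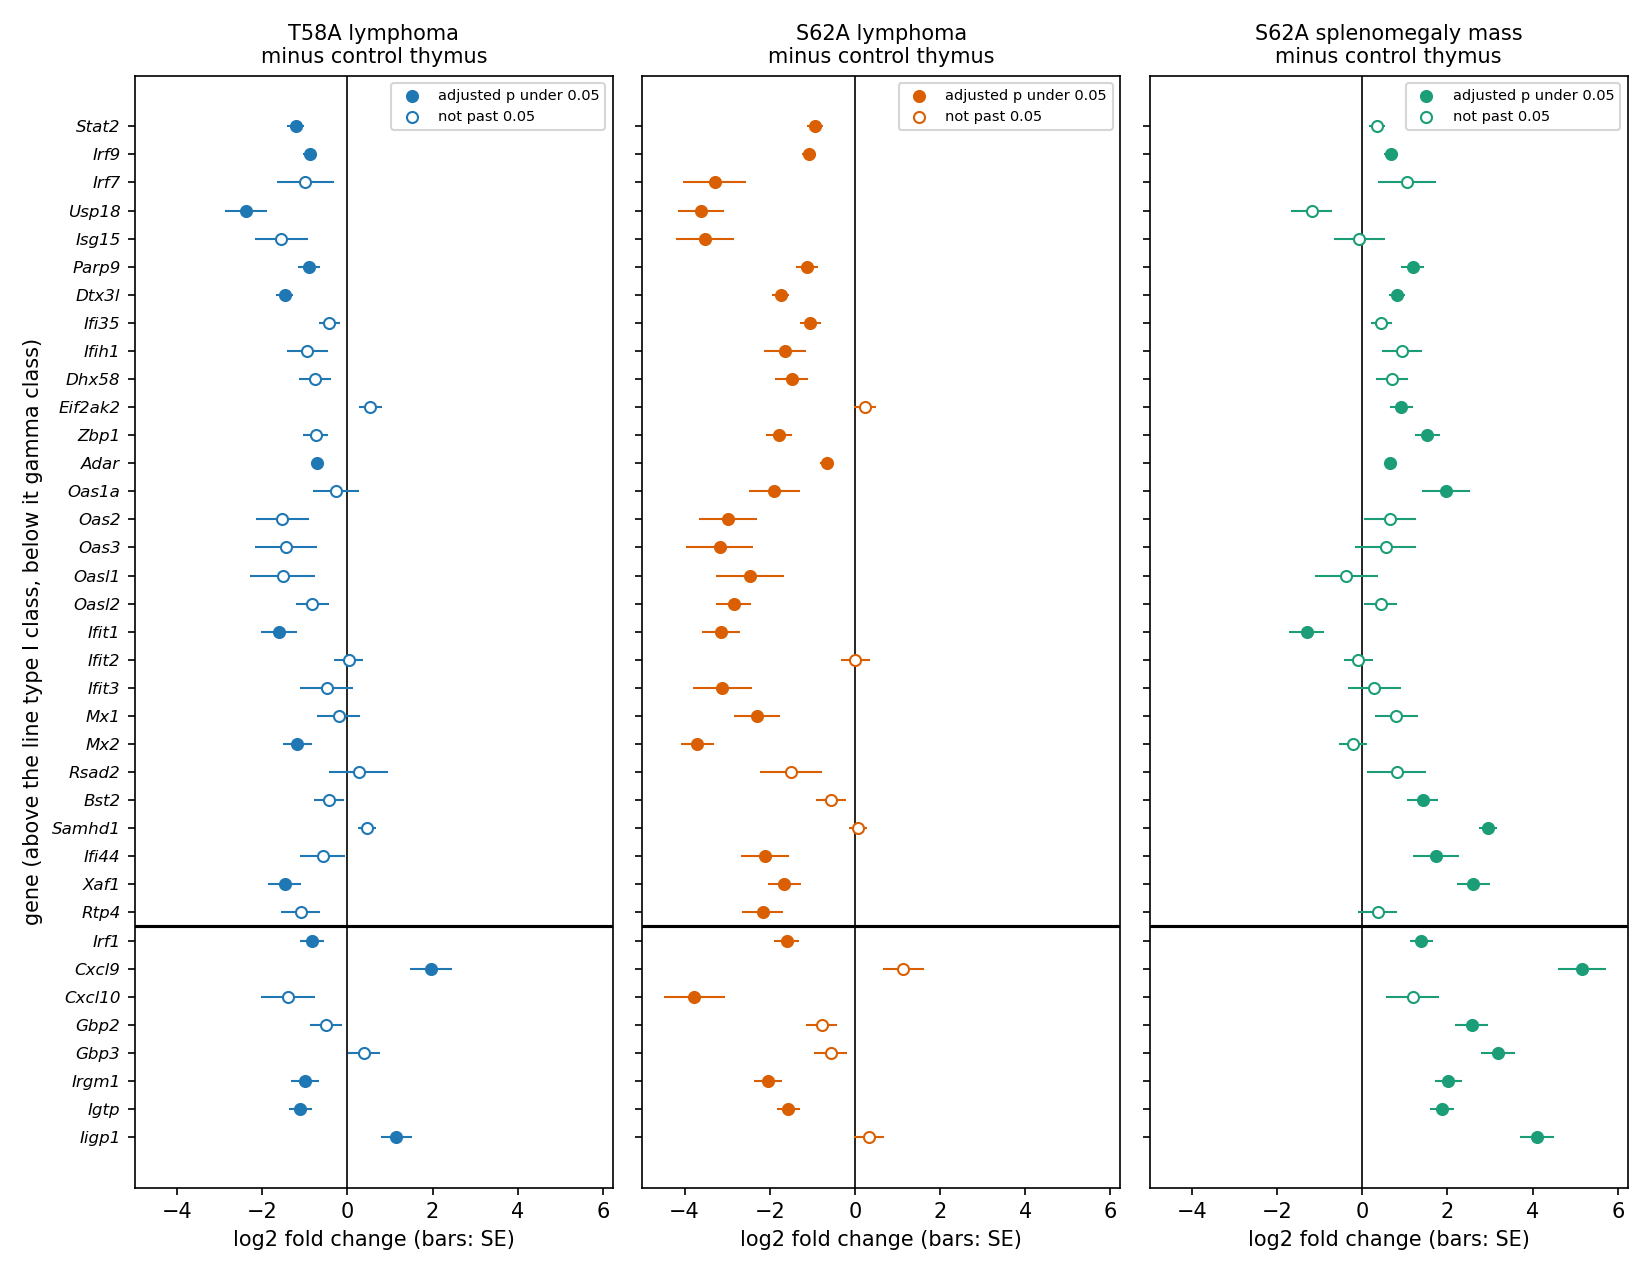
Log2 fold change against control thymus (x axis, bars are standard errors) of each of the 37 genes in the 3 other groups, from the edgeR fit on counts. Filled points passed an adjusted p of 0.05. In S62A lymphomas the filled points all lie to the left of 0, and in splenomegaly masses those of the gamma class all lie to the right, from 1.39 for Irf1 to 5.16 for Cxcl9.

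Of the 8 genes of the route from the receptor to the nucleus and of its feedback, 5 fell in T58A lymphomas and 8 in S62A lymphomas. Of all genes, 17.4% and 22.2% fell there. In splenomegaly masses 3 of the 8 rose (Irf9, Parp9 and Dtx3l), where 22.9% of all genes did. Stat2 and Irf9 encode subunits of ISGF3. Stat2 was at 106, 114 and 109 CPM in controls 1 to 3, at 55.2, 44.0 and 42.5 in T58A lymphomas, at 66.5, 41.9 and 64.4 in S62A lymphomas and at 143, 162 and 115 in the masses. Every lymphoma library lay under every control, and the lymphoma groups overlapped each other. Its log2 change was −1.22 ± 0.19 (SE) in T58A lymphomas (edgeR adjusted p = 0.000695), −0.93 ± 0.19 in S62A lymphomas (adjusted p = 0.00252) and 0.35 ± 0.19 in the masses (adjusted p = 0.142). Irf9 fell from 74.2 to 83.9 CPM in controls to 33.0 to 49.1 in T58A and 34.8 to 39.3 in S62A lymphomas, and rose to 104 to 151 in the masses.

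Irf7, the factor that amplifies type I interferon production, spanned the widest range of these 8 genes. It was at 76.3, 81.2 and 55.1 CPM in controls and at 47.3, 50.4 and 9.61 in T58A lymphomas. In S62A lymphomas it was at 11.1, 5.46 and 5.07, and in the masses at 303, 88.1 and 50.2. The S62A lymphomas lay under all controls, T58A lymphoma 3 lay in their range, and the masses overlapped the controls. The S62A change was −3.29 ± 0.74 (edgeR adjusted p = 0.00452). The T58A change of −0.99 ± 0.67 and the change of 1.05 ± 0.67 in the masses did not pass the test (adjusted p = 0.272 and 0.211).

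Usp18 and Isg15 belong together: ISG15 is a small protein attached to others like ubiquitin, and USP18 removes it and also damps the type I receptor. Usp18 was at 42.0, 42.5 and 34.7 CPM in controls, at 7.74, 11.6 and 3.51 in T58A lymphomas, at 5.35, 1.72 and 2.67 in S62A lymphomas and at 26.5, 15.0 and 10.7 in the masses. All 9 tumour and mass libraries lay under all controls. It fell by 2.38 ± 0.5 in T58A lymphomas (edgeR adjusted p = 0.00406) and by 3.61 ± 0.54 in S62A lymphomas (adjusted p = 0.0004), and its value of −1.19 ± 0.48 in the masses did not pass the test (adjusted p = 0.0613). Isg15, whose window holds the overlapping ISRE cores, was at 36.6, 36.3 and 22.6 CPM in controls and at 11.7, 17.7 and 3.34 in T58A lymphomas. It was at 2.55, 4.24 and 1.53 in S62A lymphomas and at 54.3, 23.9 and 12.8 in the masses. It fell by 3.52 ± 0.68 in S62A lymphomas (adjusted p = 0.00198), while the masses lay on both sides of the controls (−0.07 ± 0.6, adjusted p = 0.937).

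Parp9 and Dtx3l, which encode the partners of one complex, lie head to head on mm9 chromosome 16 and overlap by 558 bases on opposite strands. The strand setting of the counting is not given, so reads of the overlap cannot be assigned with certainty. Dtx3l fell in both lymphoma groups (−1.47 ± 0.2 and −1.74 ± 0.2) and rose in the masses (0.82 ± 0.19). Parp9 did the same with −0.91 ± 0.26, −1.13 ± 0.26 and 1.18 ± 0.26. Its T58A call was lost without control 1 or without control 2 (−0.86 and −0.91). Ifi35 fell in S62A lymphomas (−1.05 ± 0.25), with values of −0.43 ± 0.25 in T58A lymphomas and 0.45 ± 0.25 in the masses that did not pass the test.

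Of the 5 genes that sense or edit nucleic acids, 1 fell in T58A lymphomas, 4 fell in S62A lymphomas and 3 rose in the masses, where 17.4%, 22.2% and 22.9% of all genes did. The 1 of 5 in T58A lymphomas is thus near the share of all genes. Zbp1, a sensor of left-handed nucleic acid helices that can start necroptosis, was at 47.5, 49.0 and 39.6 CPM in controls and at 26.1, 36.1 and 18.9 in T58A lymphomas. It was at 8.53, 10.7 and 20.5 in S62A lymphomas and at 144, 133 and 116 in the masses. The 4 groups did not overlap except for the lymphomas among themselves. Zbp1 fell by 1.78 ± 0.31 in S62A lymphomas (edgeR adjusted p = 0.00108) and rose by 1.53 ± 0.3 in the masses (adjusted p = 0.00185). Its transcript rows differ in the files, and the one with fewer reads held 0.5167 of the reads of the row used.

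Adar, the enzyme that turns adenosine into inosine in double-stranded RNA fell by 0.71 ± 0.15 in T58A and by 0.66 ± 0.15 in S62A lymphomas, and rose by 0.66 ± 0.15 in the masses (edgeR adjusted p from 0.00394 to 0.00503). Ifih1, which encodes the RNA sensor MDA5, fell by 1.64 ± 0.49 in S62A lymphomas (adjusted p = 0.0186), a call lost without control 1 or 2 or S62A lymphoma 1 or 3, at −1.60 to −1.32. Dhx58, which encodes the related protein LGP2, fell by 1.48 ± 0.39. Eif2ak2, the kinase PKR that halts translation on sensing RNA, was at 19.7 to 23.6 CPM in controls, 31.7 to 32.2 in T58A lymphomas, 15.7 to 37.9 in S62A lymphomas and 34.6 to 48.9 in the masses. It was called higher in the masses (0.91 ± 0.27) and in neither lymphoma group (0.54 ± 0.26 and 0.24 ± 0.26), and the call in the masses was lost without control 3 (0.83) or splenomegaly mass 2 (0.77).

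The 5 oligoadenylate synthetase genes encode enzymes, or relatives of them, that make a messenger for RNase L when they bind double-stranded RNA. Oas1a, Oas2 and Oas3 lie on mm9 chromosome 5 between 121180342 and 121357534, and members of the family have similar copies between which reads may have been shared. In S62A lymphomas 5 of 5 fell, where 22.2% of all genes did. Their median there was −2.85, the lowest median of the 4 type I roles. In T58A lymphomas 0 of 5 were called in either direction, where 17.4% of all genes fell and 18.8% rose. The median of the 5 there was −1.45. The masses had 1 of 5 higher (Oas1a), near the 22.9% of all genes. Oas3 and Oasl2 fell by 3.18 ± 0.79 and 2.85 ± 0.42 in S62A lymphomas (edgeR adjusted p = 0.00779 and 0.000369).

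Oas2 was at 18.7, 18.8 and 19.3 CPM in controls, at 12.2, 6.13 and 1.32 in T58A lymphomas, at 2.86, 2.95 and 1.40 in S62A lymphomas and at 49.6, 22.6 and 16.7 in the masses. The controls lay close together, the T58A libraries ran from near them down to the S62A range, and the masses overlapped the controls. The change was −2.98 ± 0.68 in S62A lymphomas (edgeR adjusted p = 0.00497) and −1.53 ± 0.63 in T58A lymphomas (adjusted p = 0.0805). Oas1a was at 4.29 to 5.63 CPM in controls and at 35.5, 11.3 and 14.2 in the masses, a rise of 1.97 ± 0.56 (adjusted p = 0.0134). That call was lost without splenomegaly mass 1 (1.34) or control 3 (1.85). In S62A lymphomas Oas1a fell by 1.89 ± 0.59 and Oasl1 by 2.47 ± 0.8, and both calls were lost without control 1, control 2 or S62A lymphoma 3 (−1.83 to −1.58 and −2.38 to −1.97).

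The 11 antiviral effector genes had 3 lower in T58A lymphomas, 7 lower in S62A lymphomas, and 4 higher and 1 lower in the masses, where 17.4%, 22.2%, 22.9% and 26.3% of all genes were. The 3 Ifit genes, which encode RNA-binding proteins that block viral translation, lie within mm9 chr19:34625184-34724499 and differed in their calls. Ifit1 was at 41.5, 43.4 and 32.4 CPM in controls, at 15.1, 17.5 and 5.81 in T58A lymphomas, at 4.20, 4.38 and 4.67 in S62A lymphomas and at 22.3, 17.0 and 7.72 in the masses. All controls lay above all other libraries. Ifit1 fell in all 3 groups, by 1.61 ± 0.42, 3.14 ± 0.45 and 1.31 ± 0.42 (edgeR adjusted p = 0.0124, 0.000326 and 0.0226). The call in the masses was lost without control 1, control 2, splenomegaly mass 2 or splenomegaly mass 3 (−1.38 to −0.92). Ifit2 was called in no comparison, with log2 changes against control of 0.03 ± 0.34, 0.01 ± 0.34 and −0.10 ± 0.34. Its levels were 39.5 to 44.7 CPM in controls, 36.2 to 56.8 in T58A lymphomas, 36.5 to 50.6 in S62A lymphomas and 18.6 to 62 in the masses. Ifit3 fell in S62A lymphomas (−3.11 ± 0.69, adjusted p = 0.00426), with values of −0.49 ± 0.62 in T58A lymphomas and 0.28 ± 0.62 in the masses that did not pass the test.

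Mx1 and Mx2 belong to a family of genes for dynamin-like GTPases that trap viral components. The Mx2 row used is a RefSeq transcript annotated as non-coding, so its RNA is not shown to encode the protein. Mx2 was at 7.02, 8.37 and 6.76 CPM in controls, at 2.89, 4.21 and 2.65 in T58A lymphomas, at 0.445, 0.647 and 0.600 in S62A lymphomas and at 8.49, 4.73 and 5.89 in the masses. The 3 thymus and lymphoma groups were fully apart, and the masses overlapped the controls. Mx2 fell by 1.18 ± 0.34 in T58A lymphomas (edgeR adjusted p = 0.0181) and by 3.70 ± 0.38 in S62A lymphomas (adjusted p = 4.18e-05). The T58A call was lost without control 1 or 2 or T58A lymphoma 1 or 3 (−1.22 to −1.05). Mx1 fell by 2.30 ± 0.54 in S62A lymphomas, with −0.21 ± 0.51 in T58A lymphomas.

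Samhd1, the enzyme that breaks down DNA building blocks and so starves viruses, was at 91.0, 91.9 and 81.6 CPM in controls, at 152, 133 and 75.9 in T58A lymphomas, at 95.8, 102 and 82.8 in S62A lymphomas and at 732, 674 and 643 in the masses. The first 3 groups overlapped, and every mass lay far above them. The rise was 2.95 ± 0.22 (edgeR adjusted p = 3.97e-06), and neither lymphoma change passed the test (0.45 ± 0.21 and 0.08 ± 0.21). Xaf1, a binding partner of the apoptosis inhibitor XIAP, fell in both lymphoma groups (−1.47 ± 0.39 and −1.66 ± 0.39) and rose in the masses (2.61 ± 0.39), from 13.2 to 19.2 CPM in controls to 87.8 to 117. Bst2, the tetherin that holds budding viruses at the cell surface, rose in the masses (1.42 ± 0.36). Ifi44 fell in S62A lymphomas (−2.11 ± 0.56) and rose in the masses (1.74 ± 0.54), the latter call being lost without any one of the 3 controls or splenomegaly mass 1 (1.55 to 1.75). Rtp4 was called lower in S62A lymphomas (−2.17 ± 0.48). Rsad2, the antiviral enzyme viperin, was not called against control in any group.

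In the gamma class, Irf1 and the chemokines gave 1 higher and 1 lower of 3 in T58A lymphomas, 2 lower in S62A lymphomas and 2 higher in the masses. The shares of all genes were 18.8%, 17.4%, 22.2% and 22.9% in the same order. Irf1, a transcription factor induced by interferon gamma, was at 169, 165 and 132 CPM in controls, at 74.4, 136 and 51.0 in T58A lymphomas, at 55.2, 53.8 and 44.6 in S62A lymphomas and at 441, 415 and 364 in the masses. Its S62A libraries lay under all controls and its masses above them. It fell by 1.60 ± 0.29 in S62A lymphomas (edgeR adjusted p = 0.00121) and rose by 1.39 ± 0.28 in the masses (adjusted p = 0.00212). The fall of 0.84 ± 0.28 in T58A lymphomas was lost without control 1, control 2, T58A lymphoma 1 or T58A lymphoma 3 (−0.79 to −0.56). Another transcript row of Irf1 held 0.2542 of the reads of the row used.

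CXCL9 and CXCL10 draw activated T cells through the shared receptor CXCR3, and their genes lie near each other on mm9 chromosome 5, at chr5:92750357-92757105 and chr5:92775665-92777915. Cxcl9 was at 11.3, 10.5 and 9.49 CPM in controls, at 36.8, 73.8 and 10.5 in T58A lymphomas, at 18.4, 23.6 and 26.8 in S62A lymphomas and at 349, 433 and 335 in the masses. The S62A lymphomas and the masses lay above all controls, while T58A lymphoma 3 lay among them. Cxcl9 rose by 1.96 ± 0.5 in T58A lymphomas (edgeR adjusted p = 0.0106) and by 5.16 ± 0.56 in the masses (adjusted p = 3.67e-05), and its value of 1.14 ± 0.49 in S62A lymphomas did not pass the test (adjusted p = 0.0803). Cxcl10 was at 31.0, 29.7 and 20.9 CPM in controls, at 7.91, 20.8 and 2.24 in T58A lymphomas, at 0.700, 2.16 and 3.13 in S62A lymphomas and at 62, 72.8 and 50.8 in the masses. The masses lay above all controls and the S62A lymphomas under them. The change was −3.77 ± 0.71 in S62A lymphomas (adjusted p = 0.00169) and −1.39 ± 0.63 in T58A lymphomas (adjusted p = 0.105). The Cxcl10 transcript is overlapped over 2251 bases by Art3 on the opposite strand, a gene with 899 reads in all libraries together.

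Guanylate-binding proteins and immunity-related GTPases attack the vacuoles in which microbes live, and 5 of their genes are among the 37. All 5 rose in the masses, where 22.9% of all genes did, with a median of 2.57. In lymphomas 2 of the 5 fell in each group (Irgm1 and Igtp), against 17.4% (T58A) and 22.2% (S62A) of all genes. In T58A lymphomas 1 of the 5 rose (Iigp1), near the 18.8% of all genes. Irgm1 was at 68.5, 67.5 and 59.9 CPM in controls, at 29.0, 52.9 and 16.3 in T58A lymphomas, at 14.4, 16.8 and 16.3 in S62A lymphomas and at 264, 307 and 222 in the masses. All lymphoma libraries lay under the controls and all masses above. The log2 changes were −1.0 ± 0.32, −2.05 ± 0.33 and 2.02 ± 0.32 (edgeR adjusted p = 0.0298, 0.000648 and 0.000463). The T58A call of Irgm1 was lost without any one control, T58A lymphoma 1 or T58A lymphoma 3 (−1.06 to −0.67).

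Iigp1 was at 20.4, 21.0 and 15.4 CPM in controls, at 39.1, 67.6 and 19.3 in T58A lymphomas, at 21.8, 22 and 27.7 in S62A lymphomas and at 264, 415 and 300 in the masses. The masses lay far above the rest, and T58A lymphoma 3 again lay among the controls. Iigp1 rose by 4.11 ± 0.4 in the masses (edgeR adjusted p = 1.69e-05). Its rise of 1.15 ± 0.36 in T58A lymphomas was lost without any one control or without T58A lymphoma 2 (0.61 to 1.23). Igtp, the most abundant of the 5 in the masses at 212 FPKM, changed by −1.11 ± 0.27, −1.56 ± 0.28 and 1.87 ± 0.28. Gbp2 and Gbp3, both with an ISRE core in the window shown, rose in the masses by 2.57 ± 0.39 and 3.18 ± 0.4 and were called in neither lymphoma group. Gbp3 was at 14.9 to 18.8 CPM in controls and at 152 to 161 in the masses, where its libraries lay close together.

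Per transcript length, the highest group means in the masses were those of Bst2 at 330, Irf1 at 223, Igtp at 212 and Samhd1 at 196 FPKM. The lowest was Rsad2 at 2.60 FPKM. In controls Bst2 (134 FPKM) and Irf1 (92.0 FPKM) also led, and in S62A lymphomas Bst2 stayed at 84.6 FPKM while Mx2 was at 0.290 FPKM.

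Between the lymphomas, most genes were lower in S62A than in T58A libraries, but few differences passed the test. Of the 37 genes, 2 fell (Mx2 and Oasl2) and 0 rose (0 at an unadjusted p under 0.05 and 0 in DESeq2), where 2.29% of all genes fell and 0.859% rose. The median was −0.95, against −0.01 for all genes, and 21 genes (56.8%) were lower at an unadjusted p under 0.05, where 13.4% of all genes were. For Mx2 the S62A minus T58A difference was −2.51 ± 0.37 (edgeR adjusted p = 0.0166), and for Oasl2 it was −2.02 ± 0.41 (adjusted p = 0.0305). Mx2 had only 7 to 9 reads in each S62A lymphoma. Oasl2 was at 36.4, 36.9 and 49.6 CPM in controls, at 16.6, 34.9 and 17.5 in T58A lymphomas and at 5.35, 4.60 and 7.07 in S62A lymphomas. For 6 of the 37 genes (16.2%) every S62A lymphoma lay below every T58A lymphoma, where this held for 11% of all genes, a share not far from that of the 37. DESeq2 called 12 genes lower. The edgeR count was 14 without T58A lymphoma 3 and 1 without T58A lymphoma 2 (median −0.52) or S62A lymphoma 2. Fitted on the 2 groups alone, edgeR called 0 of the 37 and 0 of all genes.

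Splenomegaly masses and S62A lymphomas carry the same mutant and the same title letter, but only the masses also express endogenous MYC. Their labelled cells differ too, being T and B cells in the masses and T cells in the lymphomas. The part of these differences was not tested. Between these groups 36 of the 37 genes were higher in the masses and 0 lower (0 at an unadjusted p under 0.05 and 0 in DESeq2), where 25.6% of all genes were higher and 28.6% lower. The median difference was 3.10, against −0.07 for all genes. The exception was Ifit2 (−0.11 ± 0.34). The differences of the gamma class ran from 2.99 for Irf1 to 4.95 for Cxcl10, with a median of 3.76, and the type I class had a median of 2.56. Xaf1 (4.27 ± 0.43) and Irf7 (4.35 ± 0.77) differed most in the type I class. For 33 genes (89.2%) every mass lay above every S62A lymphoma, where this held for 27.9% of all genes. The calls of Eif2ak2 (0.67 ± 0.26), Oasl1 (2.09 ± 0.79) and Rsad2 (2.31 ± 0.73) were each lost without one or another library, splenomegaly mass 1 among them (0.75, 1.36 and 1.64 without it).

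Against T58A lymphomas, 28 of the 37 genes were higher in the masses and 0 lower (0 at an unadjusted p under 0.05 and 0 in DESeq2), where 20.5% of all genes were higher and 24.6% lower. The median difference was 1.87, against −0.07 for all genes. All 8 gamma genes were higher, from 2.22 ± 0.29 for Irf1 to 3.20 ± 0.51 for Cxcl9, and 20 of the 29 type I genes. Those not called included Isg15 (1.48 ± 0.62), Usp18 (1.19 ± 0.49), Ifit1 (0.29 ± 0.42), Ifit3 (0.77 ± 0.63) and Mx1 (1.01 ± 0.51). Without splenomegaly mass 1 the number called was 22, and Irf7, Oas2, Oas3, Oasl2, Mx2 and Rtp4 lost their calls (0.77 to 1.64).

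Libraries of one group differed in these genes in a common direction. T58A lymphoma 3 was the lowest of its group in 34 of the 37 genes, where 34.4% of all genes were lowest there. T58A lymphoma 2 was the highest in 29, where 32.8% of all genes were highest there. Against the mean of the other 2 T58A libraries, library 3 had a median log2 ratio of −1.14 over the type I class and −1.56 over the gamma class. Its summed markers of B cells were 29.1 CPM, against 261 and 367, its conventional dendritic cell markers (7 genes) 32.8, against 75.7 and 85.5, and its fibroblast markers (6 genes) 1620, against 451 and 789. Whether these move the interferon genes was not tested. Control 3 was the lowest control in 31 genes, where 46.2% of all genes were lowest there, by a median of −0.28 in the type I class.

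Among the splenomegaly masses, a different library led in each class. Mass 1 was the highest in 25 of the 29 type I genes but in 1 of the 8 gamma genes, where 40.2% of all genes were highest there. Over the mean of the other 2 masses, its median log2 ratio was 0.90 in the type I class, from −0.04 to 2.13, and 0.00 in the gamma class, from −0.44 to 0.18. Mass 3 was the lowest in 32 of the 37 genes, where 29.9% of all genes were lowest there, with a median of −0.79 in the type I class and −0.22 in the gamma class. These ratios rest on 1 library each and were not tested. Summed macrophage and monocyte markers were 6780 CPM in mass 1, against 4200 and 4110, conventional dendritic cell markers were 343, against 252 and 168, and erythroid markers (5 genes) were 1280, against 209 and 149. Plasmacytoid dendritic cell markers summed to 641 in mass 1, against 746 and 727. Most of those sums came from Tcf4 (162, against 256 and 276) and Spib (279, against 353 and 336). Pacsin1 and Ccr9 were also lowest in mass 1. Siglech (9.39, against 6.41 and 7.16), Lair1 (145, against 84.9 and 60.5), Klk1 and Cox6a2 were highest in mass 1. The part of all these markers in the difference was not tested.

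**Figure D4:**
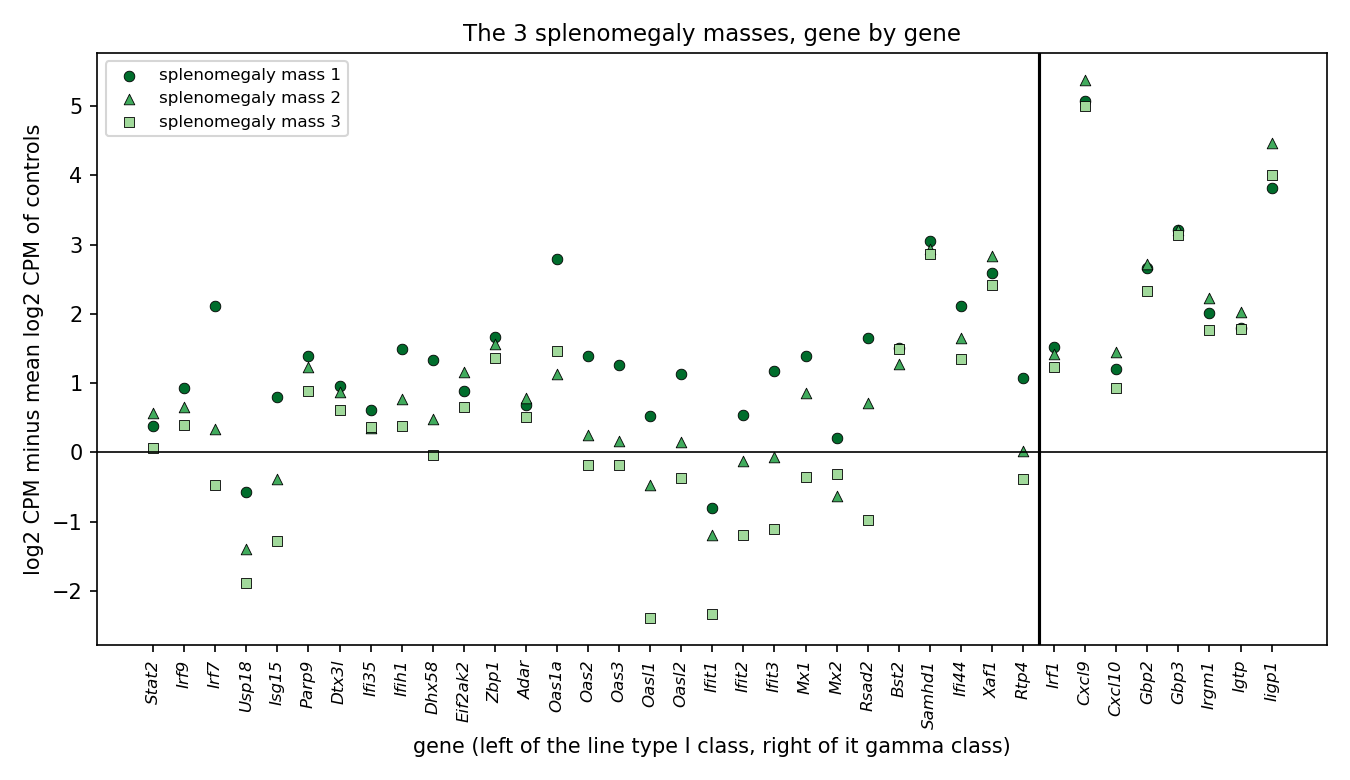
Level of each gene in each of the 3 splenomegaly masses, as log2 CPM minus the mean log2 CPM of the controls (type I class to the left of the line, gamma class to the right). Mass 1 (dark circles) lies above the other masses in 25 of 29 type I genes, while the 3 masses lie close together in the gamma class.

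Of the interferons themselves, 21 genes were in the tables and 13 had no read in any library. The 14 interferon alpha and Ifnab genes had 2 reads in all 12 libraries together. The type I gene Ifnb1 had 3, 1 and 2 reads in controls, 4, 0 and 0 in T58A lymphomas and 0 in all 6 S62A libraries, where 0 reads allow up to 3. Ifna2, Ifna13, Ifnk and Ifnl2 had 1 read each over all libraries, and Ifnz and Ifnl3 had 4 each. Interferon gamma held 95.6% of the 496 ligand reads. Ifng was at 0.103, 0.110 and 0.260 CPM in controls (2, 2 and 6 reads), at 0.289, 1.01 and 0.173 in T58A lymphomas, at 1.08, 0.0718 and 0.733 in S62A lymphomas and at 9.76, 10.7 and 8.56 in the masses (184, 102 and 122 reads). The masses lay above every other library and the other groups overlapped. Ifng rose by 5.84 ± 0.91 in the masses against control (edgeR adjusted p = 0.000375). Markers of natural killer and cytotoxic lymphocytes (9 genes) summed to 96.8 to 136 CPM in controls and 143 to 277 in the masses. Of these sums Gzma held 63.0 to 92.8 in controls and 13.2 to 26.2 in the masses. In the masses 4 of the 9 were called higher and 1 lower than in controls (median 2.4), against 22.9% and 26.3% of all genes. T cell markers were lower in the masses than in controls. The part of these markers in the Ifng values was not tested.

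The receptors changed unevenly. Ifngr1, the chain that binds interferon gamma, was at 529, 537 and 531 CPM in controls, at 124, 146 and 132 in T58A lymphomas, at 67.6, 78.9 and 45.3 in S62A lymphomas and at 300, 156 and 163 in the masses. All other libraries lay under all controls, and the lymphoma groups were apart. It fell by 1.99 ± 0.26, 3.06 ± 0.27 and 1.37 ± 0.25 (edgeR adjusted p = 0.000238, 1.64e-05 and 0.00121), and by 1.07 ± 0.25 in S62A against T58A lymphomas (adjusted p = 0.0467). Thus the masses held less Ifngr1 RNA than controls where the gamma class genes were higher. Ifngr2 was called against control in no group (−0.07, −0.52 and 0.42). Of the type I receptor chains, Ifnar1 fell in T58A (−0.61 ± 0.1) and S62A lymphomas (−0.49 ± 0.1), and Ifnar2 rose in the masses (0.63 ± 0.21). The chains of the interferon lambda receptor, Ifnlr1 and Il10rb, rose in the masses (2.40 ± 0.64 and 1.62 ± 0.21).

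Of the receptor kinases, Jak1, shared by both routes, fell in both lymphoma groups (−0.59 ± 0.16 and −0.49 ± 0.16), Tyk2 fell in T58A lymphomas (−0.52 ± 0.16) and rose in the masses (0.66 ± 0.16), and Jak2 was called in none of the 3 comparisons. The feedback inhibitors of the pathway parted in the masses: Socs1 fell by 2.22 ± 0.25, from 230 to 244 CPM in controls to 48.4 to 54.7, while Socs3 rose by 2.21 ± 0.45. Of the 7 negative regulators listed, 4 rose and 1 fell there, where 22.9% of all genes rose and 26.3% fell, and the phosphatase gene Ptpn11 rose by 0.7 ± 0.13. In lymphomas the phosphatase gene Ptpn2 rose by 1.08 ± 0.2 (T58A) and 0.78 ± 0.2 (S62A), Ptpn11 rose by 0.45 ± 0.13 in S62A lymphomas, and Pias1 fell by 0.39 ± 0.12 in T58A lymphomas.

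**Figure D5:**
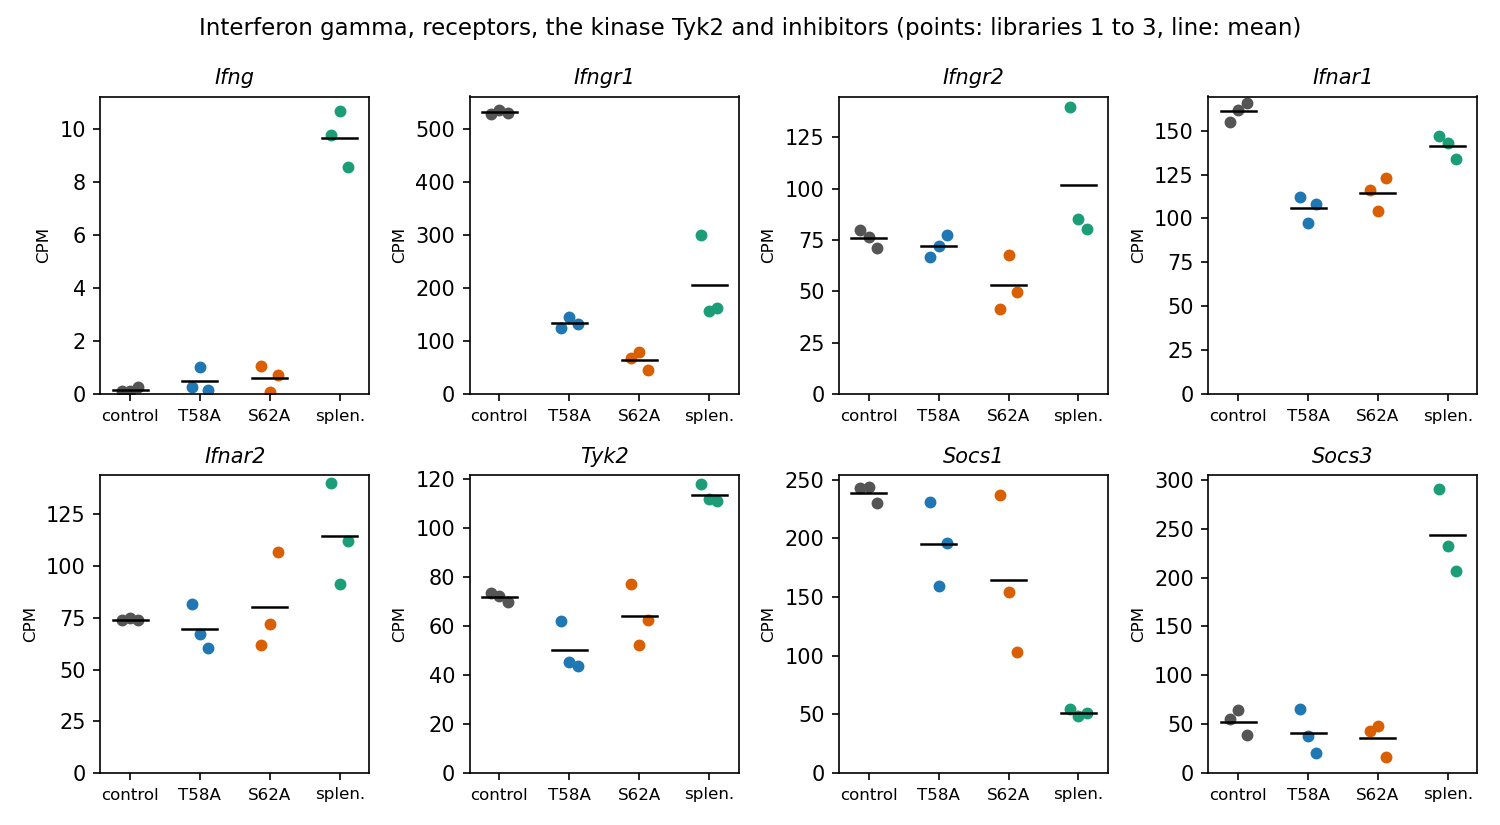
CPM of interferon gamma, the receptor chains, the receptor kinase Tyk2 and the inhibitors Socs1 and Socs3 in each library (points are libraries 1 to 3, lines are group means). Ifng is at 8.56 to 10.7 in the masses and at 1.08 or less elsewhere, while Ifngr1 is at 529 or more in controls and at 300 or less in the other groups.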

How the data were processed

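For each library the authors deposited a raw read count and an FPKM value for every RefSeq transcript. Per the submitters' processing notes, the build was mm9, and bcl2fastq 2.20.0.422, Bowtie 1.0.0 and a DESeq2 version with no number were used. How reads were counted, by strand or with several positions, is not given in the sources used here. Starts in the files were taken to count from 0 and are printed from 1. Promoter coordinates are RefSeq's on GRCm38.p6 and were not mixed with mm9. The value of a gene is its transcript row with the most reads over the 12 libraries.

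Counts of all genes that passed edgeR's filterByExpr (minimum count 10) were fitted in 1 model over the 4 groups, with trimmed-mean scaling and the two-sided quasi-likelihood test (edgeR 4.0.16, R 4.3.3). Changes are given on the log2 scale with their standard errors. DESeq2 1.42.0 and limma 3.58.1 on log2(FPKM + 1) and log2(FPKM + 0.1) were alternatives, beside other scalings, no filter, only the groups compared, the mean over transcript rows, leaving out each library, and the title letter H alone. The fit was tested on simulated data. Replicate numbers are names in accession order. Every gene of the list of 37 is accounted for, sorted by role. Of the pathway lists, the ligands with reads, receptors, kinases and, from each other list, called genes with the smallest adjusted p (2 higher and 2 lower per comparison) were to be named, and those of the comparisons with control are given, with counts for the rest. Some genes of these lists are not reported here. The genes and lists were chosen with earlier results of these data known. With 3 libraries a group, precision rests on their spread as well as on depth, which ranged from 9577373 to 22437969 reads in genes.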

Additional observations from a re-analysis of the deposited data

Results flagged for a closer look

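The change from control was different in the 2 lymphoma groups for 2 of the 37 genes, by the test of the difference itself. Both were called lower in S62A than in T58A lymphomas, where 2.29% of all genes were. For Oasl2 the change in S62A lymphomas minus that in T58A lymphomas was −2.02 ± 0.41 (edgeR adjusted p = 0.0305). Without T58A lymphoma 2, S62A lymphoma 1 or S62A lymphoma 2 it no longer passed, at −1.59, −1.98 and −1.89. For Mx2 it was −2.51 ± 0.37 (edgeR adjusted p = 0.0166), and it passed without any one library, at −2.64 to −2.28. Mx2 reads were few, at 7, 9 and 9 in the S62A lymphomas and 50, 79 and 46 in the T58A lymphomas. Neither gene passed when only the 2 lymphoma groups were fitted (−2.03 for Oasl2 and −2.52 for Mx2).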

How the results depend on the processing

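Of 222 results for the 37 genes in 6 comparisons, 127 were called and 95 of these were called with the same sign under every alternative run for them, and no called result turned its sign. In T58A lymphomas against controls, limma on log2(FPKM + 1) and on log2(FPKM + 0.1) called 1 gene higher, and with title letter H alone 0 genes were called higher, 0 lower and 413 over all genes. That setting has 1 control library. In S62A lymphomas, the fit on the 2 groups compared called 1 gene higher. In the masses against control, 2 genes were lower, not 1, with library size only, DESeq2, the 2 groups compared and both limma settings. In S62A against T58A lymphomas, DESeq2 called 12 genes lower and 1737 over all genes, against 492 in edgeR, and the 2 groups alone gave 0 and 0. The median difference of the masses from S62A lymphomas was 2.34 with limma on log2(FPKM + 1), whose pseudocount shrinks the change of low genes. Leaving out 1 library at a time gave 1 to 4 genes higher in T58A lymphomas and 0 to 2 lower in the masses. Between the lymphomas it gave 1 to 14 lower, a median of −1.23 to −0.52 and 139 to 783 called over all genes. No paired analysis was possible because the labels number no replicates and the numbers used are only names. A lone control in the title letter setting was assumed to vary like the other libraries.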

Other observations

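Other guanylate-binding and immunity-related GTPase genes, none among the 37, were read from a list of 13. In T58A and S62A lymphomas 6 of the 13 fell in each group, and in the masses 9 rose and 1 fell. Over all genes 17.4% fell in T58A and 22.2% in S62A lymphomas, and 22.9% rose and 26.3% fell in the masses. Gbp8 was at 301, 346 and 335 CPM in controls, at 13.5, 26.7 and 11 in T58A lymphomas, at 5.66, 10.1 and 8.60 in S62A lymphomas and at 97.5, 148 and 109 in the masses. It fell in both lymphoma groups (−4.26 ± 0.34 in T58A and −5.33 ± 0.36 in S62A) and in the masses too (−1.47 ± 0.31, edgeR adjusted p = 0.00235), where Irgm2 rose by 2.88 ± 0.27 and Gbp5 by 3.41 ± 0.48. Gbp6 fell by 3.24 ± 0.53 in T58A and 4.48 ± 0.58 in S62A lymphomas. Genes of this family have similar copies, between which reads may have been shared.

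Of 17 nucleic acid sensors and their adaptors, 13 rose and 1 fell (Ikbke, −0.82 ± 0.24) in the masses, against 22.9% and 26.3% of all genes. The endosomal RNA sensor Tlr7 rose by 2.94 ± 0.21 and the adaptor Ticam1 by 2.02 ± 0.19. In lymphomas the counts were 2 higher and 1 lower (T58A) and 2 higher and 2 lower (S62A), all below the shares of all genes (18.8% higher and 17.4% lower, and 21.9% and 22.2%). Tlr8 rose in both (2.62 ± 0.64 and 3.68 ± 0.66), Tlr7 rose in T58A lymphomas (0.74 ± 0.2) and the kinase gene Tbk1 in S62A lymphomas (0.36 ± 0.14). Ifi203 fell in both (−1.54 ± 0.45 and −3.04 ± 0.48), and the RNA sensor gene Ddx58 fell in S62A lymphomas (−1.35 ± 0.29). Of 6 further interferon regulatory factors, 4 rose and 2 fell in the masses, against 22.9% and 26.3% of all genes. In T58A lymphomas 1 of the 6 fell, near the 17.4% of all genes, and in S62A lymphomas 3 fell, against 22.2%. None of the 6 was called higher in either lymphoma group. Irf5 (2.76 ± 0.3) and Irf8 (2.63 ± 0.34) rose in the masses and Irf3 fell (−0.77 ± 0.14). Irf3 also fell in both lymphoma groups (−0.8 ± 0.14 and −0.69 ± 0.14). Macrophage and B cell markers summed to 4110 to 6780 and 1980 to 2650 CPM in the masses, against 492 to 582 and 75.4 to 80.1 in controls. These sums were thus higher in the masses, as most of these genes were, while Ikbke and Irf3 were lower there. The part of the markers was not tested.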
